A study of Drosophila melanogaster with 24 samples.

Results

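Heads were compared with whole bodies in adult females of w1118, the control strain of a Drosophila melanogaster study of the long noncoding RNA Lobe-less (lol). The comparison took 6 of the 24 arrays of the series, 3 of w1118 female heads and 3 of w1118 female whole bodies, and all 13873 transcripts that had a value on every array. The w1118 allele is a deletion in white, a gene needed for eye colour, so these flies have white eyes. Flies of both groups grew up at 23 °C and were frozen as adults of day 2, and each RNA extraction started from 100 heads or 100 whole bodies. The 3 arrays of a group came from separate cultures, per the labels. The other arrays were w1118 males, lol females and lol males, again with 3 arrays of heads and 3 of whole bodies each and the same rearing and age. Their values are set beside those of w1118 females. Their spread also enters the error of the tests, and their levels enter the mean signal over all 24 arrays. The labels do not give the lesion of the lol strain or say whether it carries the w1118 allele.

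The adult fly head holds the brain, the compound eyes, the antennae and mouthparts, some muscle and a layer of fat body. The rest of the body adds the thoracic muscle, the ventral nerve cord, the gut, the Malpighian tubules, the abdominal fat body and, in females, the ovaries and the reproductive tract. A whole-body sample also contains the head, so RNA of the head is part of both groups. In such bulk samples, fewer cells of a type and less RNA per cell cannot be told apart.

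Levels are log2 values of a one-colour array, made by the authors with RMA, and each is relative to the other transcripts on its array. All values ran from 6.61 to 15.92, and array medians between 12.10 and 12.25 were found. Replicate arrays correlated at 0.979 to 0.989 in w1118 female heads and at 0.978 to 0.983 in w1118 female bodies, with a median SD between replicates of 0.177 and 0.182. Head arrays correlated with body arrays at 0.867 to 0.894. These are correlations across transcripts, which are not independent replicates. Most transcripts carry only a FlyBase transcript ID here. The reference table pairs 43 of the measured IDs with genes, 16 of them with a single gene, and none of those 16 is a marker of a head or body tissue, so the tissue labels were not checked against markers.

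Heads and whole bodies differed at many transcripts, and the largest differences were all toward lower levels in heads. A total of 5321 transcripts (38.4%) were called at an adjusted p under 0.05 (limma, Benjamini-Hochberg over the 13873 transcripts). Of these, 2727 (19.7% of all tested) were higher in heads and 2594 (18.7%) were lower. At a difference of at least 1 log2, 1310 (9.44%) were higher and 1154 (8.32%) lower. At 2 log2 or more the lower transcripts outnumbered the higher ones, with 280 (2.02%) higher and 586 (4.22%) lower. Past 3 log2 there was 1 higher transcript against 367 lower ones, and past 4 log2 there were 0 against 205. Since whole-body samples include the head, the design limits how far a transcript can rise in heads relative to bodies. How much this shaped the counts was not tested.

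The middle of the distribution was close to even. The median difference over all transcripts was 0.002 log2, the 25th percentile -0.40 and the 75th 0.37, and 8179 transcripts (59%) differed by less than 0.5 log2 in either direction. RMA quantile normalizes probes, so the balance of rises and falls depends on the scaling and does not describe the tissues alone. Centring each array on its median gave a median difference of 0.059 log2, with 3097 transcripts called higher and 2362 lower. Further out the tails parted. The 5th and 95th percentiles were -1.68 and 1.57, while the 1st and 99th were -4.59 and 2.20. All 3 head arrays lay above all 3 body arrays for 3634 transcripts and below them for 3598, and the arrays of both groups overlapped for 6641. Of the called transcripts, 111 overlapped.

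**Figure D1:**
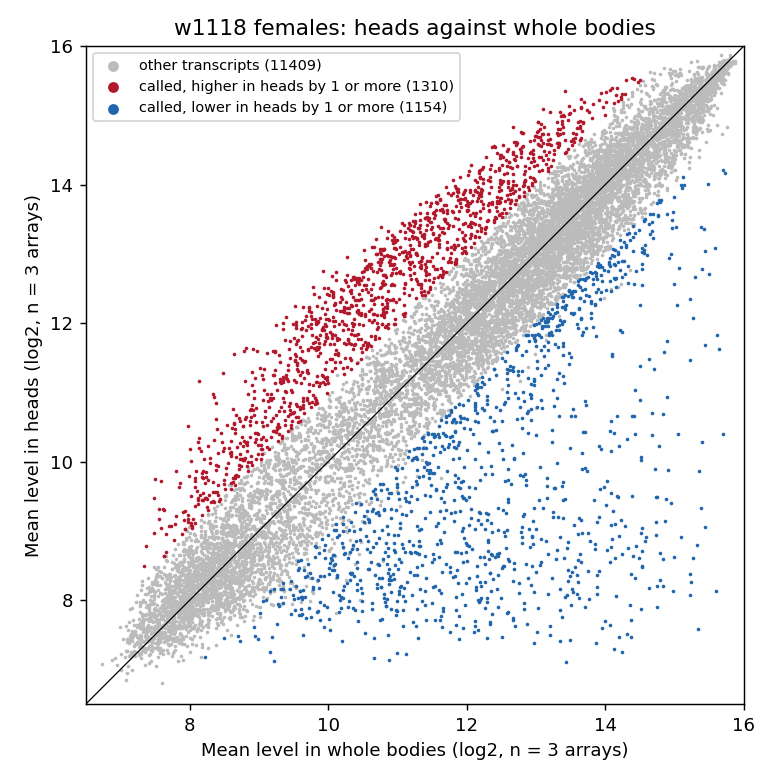
Each point is 1 transcript, with its mean log2 level in w1118 female whole bodies on the horizontal axis and in w1118 female heads on the vertical axis (3 arrays each), and the line marks equal levels. Red points (1310) were called at least 1 log2 higher in heads and form a narrow band above the line, while blue points (1154) were called at least 1 log2 lower and reach from the line down to 7.75 log2 below it.

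The most head-high transcript, FBtr0085503, stood at 11.28, 11.09 and 11.14 on the head arrays and at 8.07, 8.03 and 8.30 on the body arrays. The groups were far apart, and the difference was 3.03 ± 0.20 (SE) log2, or 8.20-fold (adjusted p = 1.12e-09, limma). FBtr0087024 had levels of 11.33, 11.94 and 11.39 in heads and of 8.34, 8.66 and 8.91 in bodies. It was 2.92 ± 0.47 (SE) log2 higher in heads, or 7.54-fold (adjusted p = 5.30e-05, limma). The IDs given for this comparison were picked among called transcripts whose head and body arrays did not overlap. Their calls and their separation were therefore conditions of the choice.

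The most body-high transcript, FBtr0084128, was near the bottom of the scale in heads, at 7.20, 8.17 and 7.38, and near its top in bodies, at 15.38, 15.27 and 15.35. The difference was -7.75 ± 1.42 (SE) log2 (adjusted p = 0.000196, limma). FBtr0086808 showed the same extremes, with 8.66, 7.86 and 7.90 in heads and 15.60, 15.57 and 15.60 in bodies, a difference of -7.45 ± 1.38 (SE) log2 (adjusted p = 0.000233, limma). No fold is given for these 2 transcripts, since their levels lie at both ends of the scale, where differences are not fully resolved. The SEs pool the spread of all 8 groups, and w1118 male heads spread widely at FBtr0084128, with 12.94, 13.46 and 7.89.

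Large falls joined very different ends of the scale. A group mean under 9 in heads and over 12 in bodies was found for 187 transcripts. This cut itself fixes that they are lower in heads, and by a large amount. All were called, with differences between -7.75 and -3.20 log2. No transcript showed the mirror pattern of a body mean under 9 and a head mean over 12, in samples where the body includes the head. In that lowest range, 2031 transcripts had both means under 9, and 1908 of them were not called, 89 were higher in heads and 34 lower. A total of 580 transcripts had both means over 15, close to the upper limit of the scale, which compresses differences. Of these, 38 were higher in heads and 34 lower. Their differences, which this cut itself keeps small, lay between -0.55 and 0.63 log2.

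Calls also varied with the mean signal over all 24 arrays. With the transcripts ranked by this mean and cut into 4 equal classes, 12% were called higher and 13.5% lower in heads in class 1, with means of 6.93 to 10.03. The shares were 22.5% and 22.8% in class 2, 23.4% and 22.1% in class 3 and 20.7% and 16.5% in class 4, the brightest. Differences of at least 2 log2 gathered in the lower part of the scale. Class 2 held 168 higher and 287 lower ones, class 1 24 and 213, class 3 84 and 68 and class 4 4 and 18. The compared arrays enter the mean that cuts the classes, so class and size of difference are not independent.

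Among the 16 transcripts with a single listed gene, 3 were higher in heads, 2 were lower and 11 were not called, against 19.7% and 18.7% of all transcripts. Their median difference was -0.04 log2, beside 0.002 for all transcripts. The largest rise belonged to fend, which encodes a transmembrane protein known from the choice of muscle targets by motor axons. Its levels were 13.70, 13.80 and 13.71 in heads and 12.42, 12.10 and 12.78 in bodies. The groups did not overlap, and the head arrays lay closer together than the body arrays. The difference was 1.30 ± 0.16 (SE) log2, or 2.46-fold (adjusted p = 2.49e-06, limma).

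NaPi-III, a sodium-dependent phosphate transporter, had levels of 14.93, 14.90 and 14.98 in heads and of 14.17, 13.90 and 14.40 in bodies. It was higher on every head array, by 0.78 ± 0.15 (SE) log2 or 1.72-fold (adjusted p = 0.000289, limma). CG16974 stood at 15.03, 15.23 and 15.16 in heads and at 14.80, 14.68 and 14.98 in bodies. The arrays did not overlap, but the difference was small, at 0.32 ± 0.12 (SE) log2 (adjusted p = 0.0388, limma). That call was lost with the 6 compared arrays alone in the fit (adjusted p = 0.0923), and without body replicate 1 (0.0905) or 2 (0.161), head replicate 2 (0.126) or 3 (0.0926), or 4 head arrays of other groups described below (0.0537).

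The largest fall among the named transcripts was that of sle (slender lobes), which encodes a nuclear protein and is named for the thin mushroom body lobes of its mutants. Its levels were 12.04, 12.47 and 12.47 in heads and 13.81, 13.58 and 14.01 in bodies. Every head array was more than 1 log2 below every body array. The difference was -1.47 ± 0.18 (SE) log2, or 2.78-fold lower (adjusted p = 1.64e-06, limma). LanA, the alpha subunit of a laminin found in basement membranes, was at 14.38, 14.60 and 14.06 in heads and at 14.84, 14.90 and 14.99 in bodies. It was lower on every head array, by -0.57 ± 0.14 (SE) log2 or 1.48-fold (adjusted p = 0.00233, limma), and its head arrays spread more widely than its body arrays.

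The other 11 named transcripts were not called and differed by -0.24 to 0.22 log2. They included a pair of subunits of GATOR2, a complex that acts on TORC1 signalling. For mio the difference was -0.02 log2 (adjusted p = 0.923, limma) and for Wdr24 -0.14 (adjusted p = 0.607). Of the genes acting on proteins through ubiquitin, Uba1, the E1 activating enzyme, differed by -0.04 (adjusted p = 0.739), and rdx, an adaptor of Cullin 3 ligases, by -0.10 (adjusted p = 0.522). Fatp1, a fatty acid transport protein, differed by 0.19 (adjusted p = 0.173). Centring each array on its median called Fatp1 (adjusted p = 0.0475) and alpha-Spec, the alpha chain of spectrin, at 0.28 in place of 0.22 (adjusted p = 0.0483 in place of 0.124). CG31178 was low on all 6 arrays, between 7.69 and 8.91, and differed by -0.24 (adjusted p = 0.84).

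Only 2 of the 21 gene lists drawn up for this tissue comparison had members among the named transcripts. The list of basement membrane and membrane skeleton had LanA and alpha-Spec, of which 1 was lower and 1 not called. The chromatin list had 4 members and 0 of them were called in w1118 females, where 38.4% of all transcripts were. These were kis, a chromatin remodeller (0.20), His4r, a replication-independent histone H4 (-0.04), the deacetylase HDAC3 (-0.12) and SuUR, a protein that slows the replication of heterochromatin in polytene cells (-0.22). Their adjusted p-values in limma lay between 0.295 and 0.829, and their unadjusted values were above 0.05 as well.

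**Figure D2:**
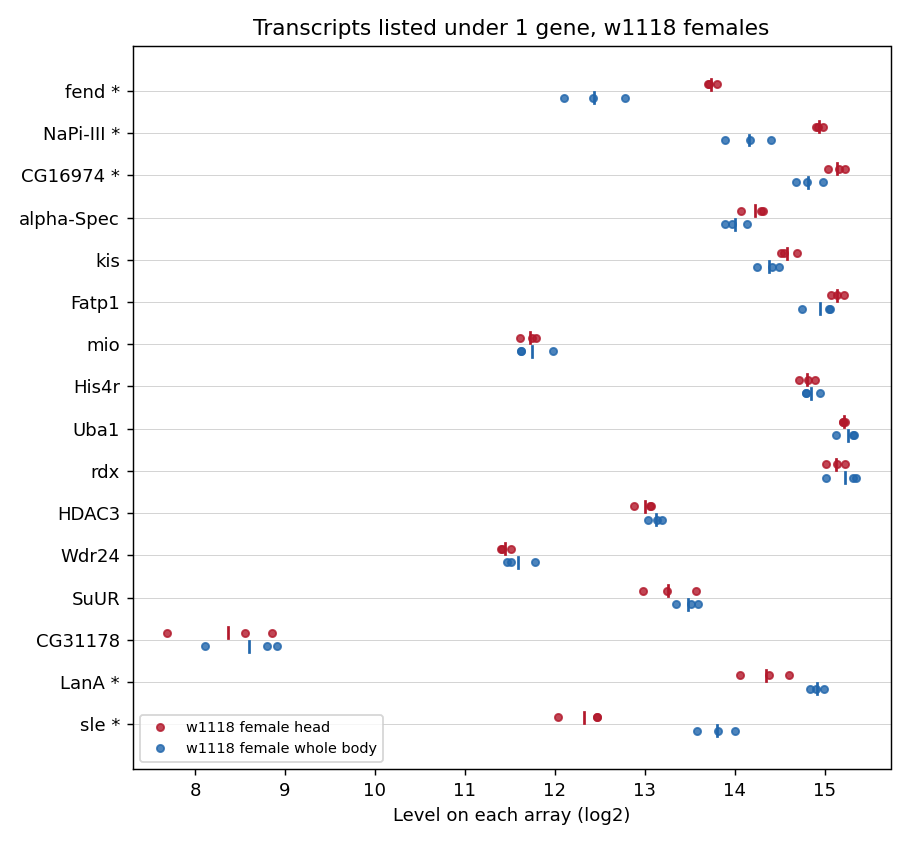
Points are the log2 levels of the 16 transcripts with a single listed gene on the 3 head arrays (red) and the 3 body arrays (blue) of w1118 females, short bars are means, and asterisks mark the 5 called transcripts. The head arrays of fend, NaPi-III and CG16974 all lie to the right of the body arrays, those of LanA and sle all lie to the left, and CG31178 is near the low end in both.

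A further 27 measured transcripts are listed under several genes, as a polycistronic RNA would be, and their values cannot be given to a single gene. In w1118 females, 4 were higher in heads, 8 lower and 15 not called, beside 19.7% higher and 18.7% lower over all transcripts, and the median was -0.24 log2 beside 0.002. The examples that follow lie outside the rule for named genes and were chosen after their values had been seen. The transcript of CG17325 and CG42305 had the largest rise, with 15, 14.80 and 14.90 in heads and 14.12, 14.50 and 13.89 in bodies, a difference of 0.73 ± 0.16 (SE) log2 (adjusted p = 0.000901, limma). The other 3 rises were of 0.31 to 0.45 log2.

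The 8 falls were of 0.30 to 0.58 log2. The transcript of vnc, an N-terminal acetyltransferase, and CG42455 stood at 12.96, 12.85 and 12.96 in heads and at 13.47, 13.42 and 13.54 in bodies. The replicates were close and the groups did not overlap, with a difference of -0.55 ± 0.12 (SE) log2 (adjusted p = 0.00135, limma). The transcript of Polr3K, an RNA polymerase III subunit, and Tcs1 was at 11.74, 12.23 and 11.99 in heads and at 12.47, 12.63 and 12.50 in bodies, a difference of -0.55 (adjusted p = 0.0152, limma). The respiration list had 2 members measured this way, both called lower in w1118 females, where 18.7% of all transcripts were, and neither called in w1118 males or lol females. The transcript with Tim10, an import chaperone of the intermembrane space, was at 14.21, 14.31 and 14.52 in heads against 14.93, 14.97 and 14.70 in bodies. It was lower by -0.52 (adjusted p = 0.00906, limma), and the transcript with ND-MNLL, a complex I subunit, by -0.45 (adjusted p = 0.0314).

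The same comparison was made in w1118 males and in lol females, whose group means share no array with those of w1118 females. All of these tests take the spread of each transcript from 1 model of the 24 arrays, so their calls are not independent. Before the other comparisons are read, 4 head arrays need mention: w1118 male head replicates 1 and 2, lol female head replicate 1 and lol male head replicate 1. On them the 205 transcripts that were at least 4 log2 body-high in w1118 females had median levels of 10.16, 10.32, 9.83 and 10.06. On the other 5 head arrays of those groups the median was 8.36 to 8.57, and on the w1118 female head arrays 8.57, 8.37 and 8.30. The w1118 female levels chose these transcripts, so low medians there do not show whether a w1118 female array stood apart. The source of the higher levels on the 4 arrays was not tested. The main results on w1118 males and lol females below are also given without the 4 arrays. That leaves 1 array of w1118 male heads and 2 of lol female heads, so a test without them assumes that the lone male head array varies like the arrays of the other groups.

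Most transcripts that were head-high in w1118 females were head-high in the other flies too. Of the 1310, 1181 (90.2%) were called higher in heads of w1118 males, where 31.6% of all transcripts were, and 1247 (95.2%) in heads of lol females, where 19.1% were. Their median difference was 1.62 log2 in w1118 females, 1.79 in w1118 males and 1.47 in lol females. Differences in w1118 females chose this set and those below, which can enlarge the w1118 female medians beside the others. Without the 4 arrays, fewer of the set were called higher in both. The medians were then 1.97 in males and 1.43 in lol females, beside 0.23 and 0.02 for all transcripts. FBtr0085503 was higher in heads by 3.04 log2 in males and 2.77 in lol females, and FBtr0087024 by 2.66 and 2.51.

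For the body-high transcripts the shares were further apart. Of the 1154, 790 (68.5%) were called lower in heads of w1118 males, where 23.5% of all transcripts were, and 1003 (86.9%) in lol females, where 18.2% were. Their medians were -2.02 log2 in w1118 females, which chose the transcripts, -1.15 in males and -1.67 in lol females. Without the 4 arrays, fewer of the set were called lower in both. The medians were then -1.20 in males and -1.67 in lol females, beside 0.23 and 0.02 for all transcripts. The 205 transcripts of at least 4 log2 had a median of -5.04 in w1118 females and -4.56 in lol females. In males that median was -3.33 with all arrays, where 179 of the 205 were called lower, and -4.57 without the 4. These same transcripts read high on the 4 arrays, so leaving those arrays out lowers the median in any case.

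**Figure D3:**
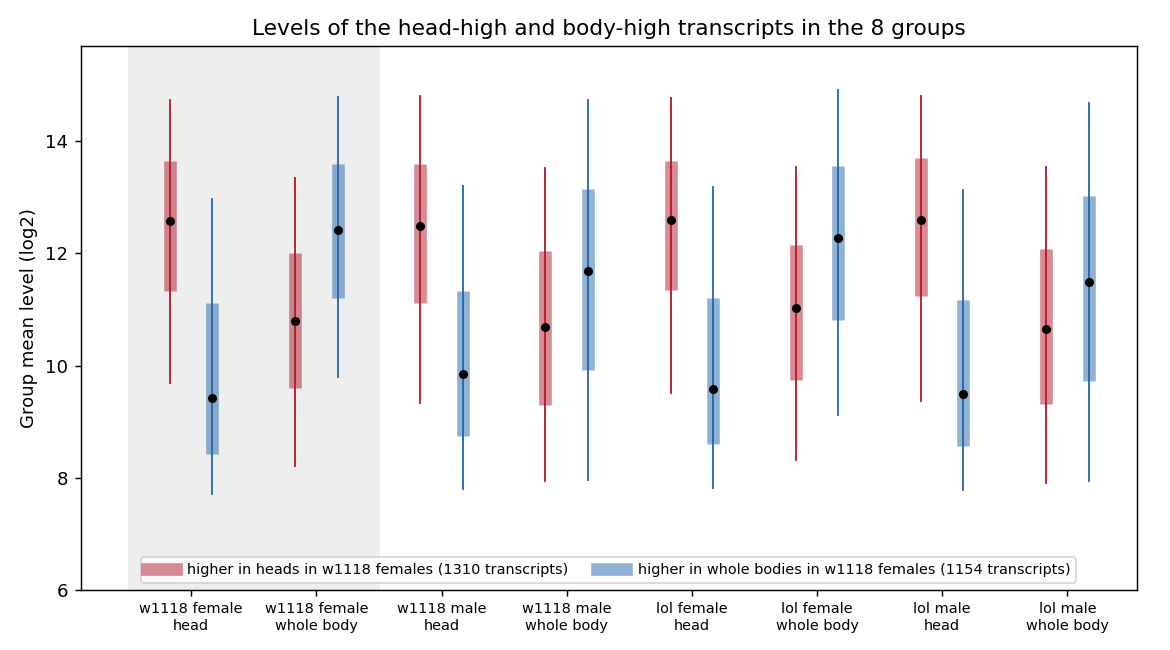
For each of the 8 groups the plot shows the log2 group mean levels of the 1310 head-high transcripts (red) and the 1154 body-high transcripts (blue) of w1118 females, with the median as a black point, the 25th to 75th percentile as a thick bar and the 5th to 95th as a thin line. In the shaded w1118 female groups, which chose the transcripts, head-high medians are 12.58 in heads and 10.79 in bodies and body-high medians 9.42 and 12.42, and the unshaded groups show the same order with body-high medians of 11.49 and 11.69 in male bodies.

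In levels, the head-high transcripts had medians between 12.38 and 12.75 on all 12 head arrays, and between 10.50 and 11.08 on all 12 body arrays. The head and body arrays did not overlap in this value in any group. The body-high transcripts had medians of 12.36 to 12.58 on the w1118 female body arrays, 12.26 to 12.35 on the lol female ones and 11.49 to 11.68 on the 6 male ones. In lol the male body arrays were all below the female ones. The w1118 female levels chose the transcripts, so the order of any group against those 2 groups is a description.

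Over all called transcripts the pattern was similar. Of the 2727 higher in w1118 female heads, 2322 (85.1%) were called higher in male heads, 167 were called lower there and 238 were not called. Of the 2594 lower ones, 1293 (49.8%) were called lower in male heads, 110 higher and 1191 not at all. In lol females, 2224 (81.6%) of those higher and 2033 (78.4%) of those lower were called in the same direction, and 4 and 1 in the opposite one. Without the 4 arrays, fewer of the higher and of the lower transcripts were called in the same direction, in males and in lol females alike. Fewer of all transcripts were called there as well. The differences in w1118 females correlated with those in lol females at 0.925 and with those in w1118 males at 0.575, again across transcripts, and at 0.916 and 0.528 without the 4 arrays.

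**Figure D4:**
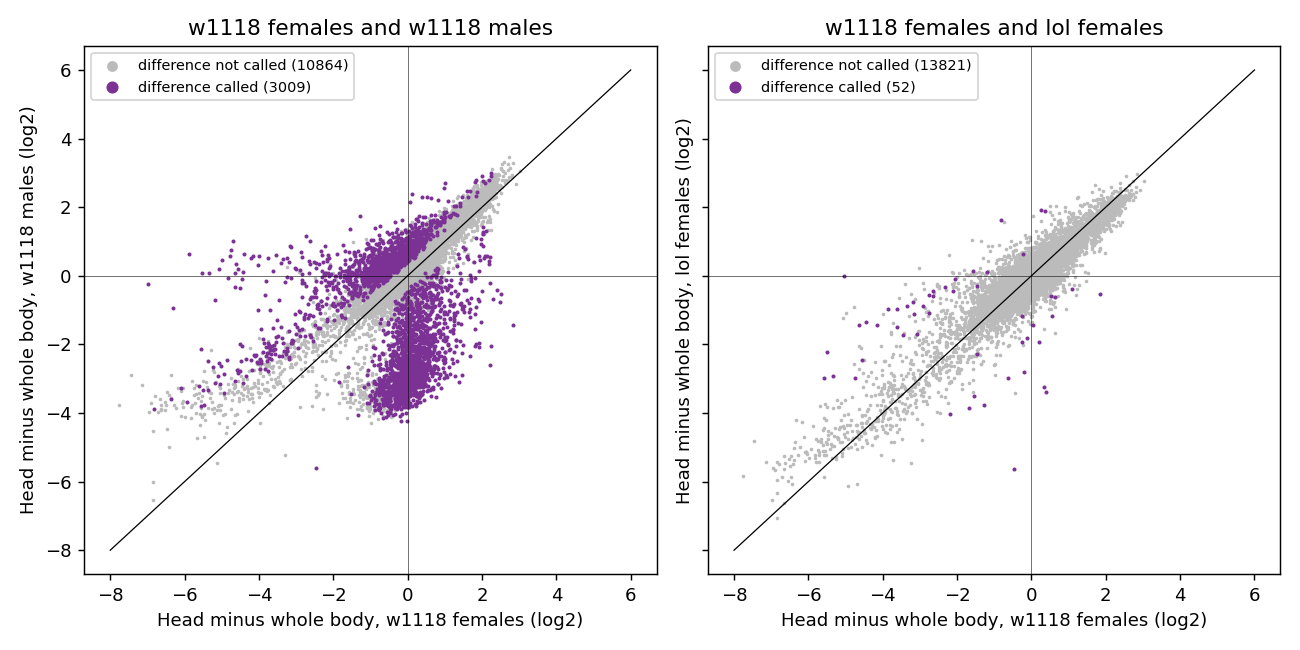
Each point is 1 transcript, with its head minus whole body difference (log2) in w1118 females on the horizontal axis and in w1118 males (left) or lol females (right) on the vertical axis, and the line marks equal differences. Purple points mark transcripts whose difference between the groups compared was itself called, 3009 for males and 52 for lol females; those on the left include a cloud below 0 in males and close to 0 in females.

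Whether the head-body difference depended on sex was tested directly, as the difference in w1118 females minus that in w1118 males. It was called for 3009 transcripts (21.7%), 1622 positive (11.7%) and 1387 negative (10%). Without the 4 arrays the count was 3580, with 1774 positive and 1806 negative, so that positive calls no longer outnumbered negative ones. Negative calls were also the more numerous when the arrays were quantile normalized again (1830 against 1622) or the lowest 25% of transcripts left out (1052 against 602). The median of this difference over all transcripts was -0.20 log2. A call here does not need a call in females: 1799 of the 3009 were not called in w1118 females, and 1329 of those were called lower in male heads.

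IDs for this test were taken only from transcripts without overlap between w1118 female head and body arrays. Larger differences outside these are not named. The most positive among them was FBtr0080270. On the w1118 female arrays it stood at 9.96, 10.07 and 10.99 in heads and at 8.11, 8.15 and 8.13 in bodies, and in males at 10.96, 11.17 and 10.77 in heads and at 13.46, 13.17 and 14.03 in bodies. The head levels of both sexes overlapped, while male bodies lay above all other arrays named here. The head-body difference was 2.21 log2 in females and -2.59 in males, a difference between the sexes of 4.80 ± 0.42 (SE) (adjusted p = 6.05e-07, limma). FBtr0089608 differed in the same sense, with 1.37 in females and -3.11 in males, a difference of 4.48 ± 0.74 (SE) (adjusted p = 0.000256, limma), or 5.65 without the 4 arrays.

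The most negative among transcripts without such overlap, FBtr0077804, was high in female bodies alone among these groups. Its levels were 14.37, 14.24 and 14.12 in w1118 female bodies, 7.53, 7.35 and 8.66 in w1118 male bodies, 7.26, 7.07 and 7.45 in heads of the females and 7.95, 7.23 and 7.65 in those of the males. The head-body difference was -6.98 log2 in females and -0.24 in males, and the difference between the sexes -6.75 ± 0.52 (SE) (adjusted p = 2.46e-07, limma). FBtr0081954 had differences of -5.88 and 0.63, which differed by -6.51 ± 0.56 (SE) (adjusted p = 4.17e-07, limma), or by -7.19 without the 4 arrays. In lol female bodies the level of FBtr0077804 was 14.74 to 14.92, so the high level was seen in females of both strains.

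Of the 16 named transcripts, 4 had a head-body difference that depended on sex, beside 21.7% of all transcripts. The values without the 4 arrays in what follows rest on a single w1118 male head array. For fend it was 1.30 log2 in females and 2.02 in males, a difference of -0.72 (adjusted p = 0.0297, limma), which was -0.58 without the 4 arrays and no longer called (adjusted p = 0.153). For Wdr24 it was -0.14 and 0.83, a difference of -0.97 (adjusted p = 0.0128), which also lost its call without them (-0.79, adjusted p = 0.0751). For HDAC3 it was -0.12 and 0.53, a difference of -0.65 (adjusted p = 0.00355), and -0.64 without them (adjusted p = 0.0299).

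CG31178 was the only named transcript with a positive difference between the sexes. Its level was 13.45 to 13.68 in w1118 male bodies and 7.69 to 8.91 on all 6 w1118 female arrays. In w1118 male heads it was 10.25, 11.56 and 7.69, with the first and second values from the arrays that stood apart. The head-body difference was -3.73 log2 in males, and the difference between the sexes was 3.49 (adjusted p = 0.021, limma), or 5.63 without the 4 arrays (adjusted p = 1.48e-07). For LanA, which was not called for sex, the difference was -0.39 (adjusted p = 0.172), and -0.65 without the 4 arrays (adjusted p = 0.0431).

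In w1118 males themselves, 9 of the 16 named transcripts were called higher in heads and 2 lower, beside 31.6% and 23.5% of all transcripts, with a median of 0.34 log2 beside 0.16. Without the 4 arrays, which leaves 1 w1118 male head array, alpha-Spec, kis, mio and rdx lost the call. The median was then 0.335 log2, beside 0.232 for all transcripts. In lol females, 3 of the 16 were called higher in heads and 2 lower, beside 19.1% and 18.2% of all transcripts, with a median of 0.06. The called directions of fend (1.59), NaPi-III (1.03), CG16974 (0.35), LanA (-0.98) and sle (-1.25) in lol females were those seen in w1118 females, and CG16974 lost its call there without the 4 arrays (adjusted p = 0.0906, limma). In males the differences of these genes were 2.02, 1.37, 0.35, -0.18 and -1.41, and that of LanA was not called (adjusted p = 0.279, limma). For kis the difference in males was 0.63 (adjusted p = 0.000944), and 0.38 without the 4 arrays (adjusted p = 0.103).

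A further description comes from the sexes of lol, whose levels did not enter the head-body difference of w1118 females, although their spread entered the error of its test. In lol bodies, 6015 transcripts (43.4%) were called higher in females than males and 2240 (16.1%) higher in males. In lol heads only 8 (0.0577%) were called higher in females and 4 (0.0288%) higher in males by limma, with 399 at an unadjusted p under 0.05. Both sets of w1118 females leaned to the female side in lol bodies, with 745 of the 1310 head-high transcripts (56.9%) and 643 of the 1154 body-high ones (55.7%) called higher in females. Of each set, 2 or 3 transcripts were called between lol female and male heads. The median sex difference in lol bodies was 0.59 log2 for head-high, 0.82 for body-high and 0.38 for all transcripts. Among body-high transcripts, the share called higher in lol females fell as the w1118 female difference grew. It was 47.8% at 2 log2 or more and 27.8% (57 of 205) at 4 log2 or more, beside 43.4% of all transcripts. The medians there were 0.85 and 0.69 log2.

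The sets parted further at a sex difference of at least 1 log2 in lol bodies. Among the body-high transcripts, 435 were then higher in lol females, 56 higher in lol males and 663 neither. The 435 had a median difference of -2.01 log2 in w1118 females and of -0.55 in w1118 males, where 205 of them were called lower and 20 higher, beside 23.5% and 31.6% of all transcripts. The 663 had medians of -2.09 and -1.35, and 529 of them were called lower in males. All 56 male-biased ones were called lower in male heads, at a median of -2.71. The medians in males of the 435, the 663 and the 56 were -0.47, -1.45 and -3.39 without the 4 arrays.

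Among the head-high transcripts, 211 were at least 1 log2 higher in lol female bodies, 115 higher in lol male bodies and 984 neither. All 211 and 965 of the 984 were called higher in w1118 male heads as well, with medians of 2.04 and 1.81 log2. The 115 differed, with a median of 1.37 in w1118 females and -1.04 in w1118 males, where 5 were called higher and 78 lower. Their median level was 10.70 in female heads, 10.93 in male heads, 12.09 in male bodies and 9.30 in female bodies. Without the 4 arrays, fewer of the 115 were called lower in males, and their median there was -0.88 log2.

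**Figure D5:**
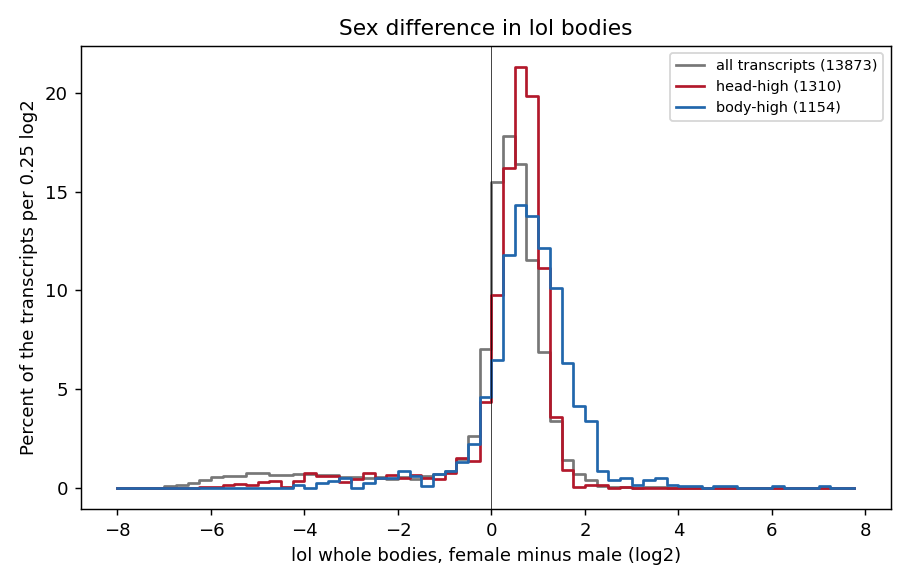
The lines show the percent of transcripts in each 0.25 log2 step of the difference between lol female and lol male whole bodies (female minus male, horizontal axis), for all 13873 transcripts (grey), the 1310 head-high (red) and the 1154 body-high ones (blue) of w1118 females. The red line is narrow with a median of 0.59, the blue line is wider to the right with a median of 0.82, and the grey line has its median at 0.38 and a long tail on the male side.

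Whether the head-body difference of females depended on strain was tested in the same way, as the difference in w1118 minus that in lol. It was called for 52 transcripts (0.375%), 20 positive (0.144%) and 32 negative (0.231%), with 693 at an unadjusted p under 0.05 (limma). Of the calls 38.5% were positive, and 63% were when the arrays were quantile normalized again. Leaving out any of the 12 female arrays in turn moved the count to between 19 and 107, by over 1.5 times for each but lol female head replicate 3, and it was 107 without w1118 female body replicate 2. None of the 16 named transcripts was called.

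Among the called transcripts without overlap between w1118 female head and body arrays, the most positive was FBtr0075181. It was 5.18 ± 0.61 (SE) log2 apart between the strains (adjusted p = 0.000151, limma). Its levels in w1118 were 9.46, 9.62 and 9.34 in heads and 9.71, 9.89 and 10.18 in bodies, whereas lol female bodies stood at 13.66 to 14.28 and lol female heads at 8.15 to 8.73. FBtr0089323 lay at the other end, at -5.03 ± 0.38 (SE) (adjusted p = 8.68e-07, limma). It was at 6.94, 7.75 and 7.70 in w1118 heads and at 12.39, 12.81 and 12.34 in w1118 bodies, against 7.36 to 8.01 and 7.54 to 7.99 in lol females. The other transcripts named by the rule were FBtr0087749, at 2.62 (adjusted p = 0.000612), and FBtr0085861, at -3.29 (adjusted p = 0.0464, lost under 16 of 20 alternatives).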

How the data were processed

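Total RNA of adult flies was labelled with Cy3 and measured on a one-colour NimbleGen array designed for 16637 transcripts with 8 probes each. The authors deposited log2 values made with RMA, per the submitters' processing notes, and base 2 was read from the values. RMA corrects background, quantile normalizes probes and summarises those of a transcript. Which arrays were normalized together is not given in the sources used here. The table held 15595 transcripts, and 1722 without any value were dropped. Arrays give no count depth, and their number limits the precision.

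One limma model (version 3.58.1, R 4.3.3), which gave each of 8 groups its own mean, was fitted to all 24 arrays (lmFit, contrasts, eBayes), and p-values were adjusted over 13873 transcripts by Benjamini-Hochberg. The model was tested on simulated data. Errors are SEs of the model.

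Named IDs are the 2 most positive and 2 most negative called differences of a comparison. All were taken from transcripts whose w1118 female head and body arrays did not overlap, also for the tests of sex and strain. Gene names come from a Release 6 reference table, which lists 49 of the FlyBase IDs. Of these, 44 were in the deposited table and 43 measured, 16 under 1 gene and 27 under several. The members and lists were chosen with earlier results of these data known. Of 21 gene lists, 2 had a named member and 1 more had members only in transcripts of several genes. Alternatives changed the prior, the arrays in the fit, the scaling, the filters and the block.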

Additional observations from a re-analysis of the deposited data

Results flagged for a closer look

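The head-body difference differed between w1118 females and males for 3009 transcripts and between w1118 and lol females for 52, by the test of the difference itself (limma).

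Among transcripts with a listed gene, the difference between w1118 females and males was called for 7 of 43, beside 21.7% of all transcripts. It was -0.72 log2 for fend, -0.65 for HDAC3, -0.97 for Wdr24 and 3.49 for CG31178. Among the transcripts of several genes it was -1.40 for that of Rad1 and Sws1, -0.78 for that of Polr3K and Tcs1 and -0.51 for that of CG42455 and vnc. The median difference was -0.26 log2 for the 43, beside -0.20 for all transcripts. Without the 4 head arrays that stood apart, which leaves 1 array of w1118 male heads, these medians were -0.30 and -0.25. The calls of fend (-0.58), Wdr24 (-0.79) and the transcript of CG42455 and vnc (-0.38) were then lost, and the other 4 were kept. LanA (-0.65) and the transcripts of Tgs1 and moi (-1.18), Mocs2A and Mocs2B (-1.51) and PIG-P and Tcs6 (-0.93) were called only in that fit.

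The IDs chosen by the size of this difference between the sexes were FBtr0080270 (4.80 log2), FBtr0089608 (4.48), FBtr0077804 (-6.75) and FBtr0081954 (-6.51). Those chosen by the difference between the strains were FBtr0075181 (5.18), FBtr0087749 (2.62), FBtr0089323 (-5.03) and FBtr0085861 (-3.29).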

How the results depend on the processing

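The count of 5321 transcripts that differed between heads and whole bodies of w1118 females lay between 4557 and 5714 over 14 alternatives, with 2324 to 3097 higher and 2219 to 2883 lower in heads. Leaving out the lowest 25% of transcripts by mean gave 373 lower by at least 2 log2, 1654 that depended on sex (602 positive) and 15 that depended on strain (10 positive, 5 negative). For the test of strain, quantile normalization again gave 27 (10 negative), the compared arrays alone 19 negative, and the fit without the 4 head arrays 34 positive. Leaving out each array in turn gave 19 to 107 for strain, with 11 to 22 positive and 7 to 86 negative. The cause of these shifts was not tested, except that the filter leaves fewer transcripts to test. At a threshold of 2 log2 for the sets, 95% of head-high transcripts were called higher in w1118 males and 100% in lol females. Of body-high ones, 81.6% and 92.3% were called lower. In lol bodies, 67.1% of the head-high and 47.8% of the body-high set were called higher in females, beside 43.4% of all transcripts. Without the 4 head arrays, which leaves 1 array of w1118 male heads, 93.8% of head-high transcripts were called higher in lol females, 62.3% of body-high ones lower in w1118 males and 63.9% of body-high ones higher in lol female bodies. Same-numbered head and body arrays of w1118 females deviated together at correlations of 0.215, 0.001 and -0.005, and differently numbered ones at -0.312 to 0.297. These values do not settle whether same-numbered arrays share an origin. The fit with the replicate block called 5560 transcripts, 3309 for sex and 57 for strain. Signs under the alternatives were followed only for the head-body differences of the transcripts with a single listed gene and for the differences that chose the IDs. No called difference among these changed sign. The differences of CG31178 (-0.49 to 0.10), mio (-0.08 to 0.10), His4r (-0.08 to 0.02) and Uba1 (-0.11 to 0.01), which were not called, took both signs.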
